A study of Rattus norvegicus with 352 samples.

Results

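Gtpbp4, Ccdc77 and Hpse2 are 3 genes, of 38354 in the table, whose transcript level split the brains of outbred rats into a lower and an upper level with no library in between. They were chosen by name for that pattern, with a cut at a level of 3.9 for Gtpbp4, at 2.6 for Ccdc77 and in the empty stretch between 1.53 and 2.04 for Hpse2. A level here means log2(CPM + 1), with CPM standing for the counts of a gene when the counts of its library are scaled to 1000000. The other genes with a start site within 1 Mb were added: 31 around Gtpbp4, 35 around Ccdc77 and 35 around Hpse2. Because the levels of these 3 genes chose them and set the cuts, their own values are given as a description, and tests concern other genes and other measures. The cuts were set on these same libraries.

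The libraries came from frozen whole brain hemispheres of heterogeneous stock rats, which are outbred animals bred from a mix of inbred founder strains for genetic mapping. All rats were naive and untreated, so the series holds 1 group, brain. The table holds 97.2% of the samples in the labels, and 10 were not analysed here. Age, sex, founder strains and genotypes are not given in the labels used here, which do not say either whether each library is a separate rat, so p-values measure the spread between libraries. Library totals ran from 5418230 to 42980793 estimated counts (median 21881769), and 22962 to 27876 genes were above 0 in a library (median 26366). The tissue matched its label: neuron markers had mean levels from 6.95 to 11.2 and oligodendrocyte markers from 6.85 to 12.4.

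The 3 genes work in unrelated processes. Gtpbp4, the rat relative of yeast Nog1, is a nucleolar GTPase that joins the large ribosomal subunit while it is being assembled and leaves before the subunit is mature. Ccdc77 encodes a little-studied coiled-coil protein found at the centrosome, the organelle that organises microtubules and forms the base of the cilium. Hpse2 encodes heparanase 2, a secreted relative of heparanase that binds heparan sulfate chains without cutting them and inhibits heparanase; its loss in people causes a disorder of the bladder and face.

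The genes lie on different chromosomes of the GRCr8 assembly. Gtpbp4 occupies chr17:65997472-66019530 on the forward strand. Ccdc77 lies on the reverse strand of chr4:155206402-155238235, and its start site is 0.11 kb from that of Kdm5a, which runs the other way, so the 5′ ends of the pair overlap. Hpse2 spans 699168 bases of the reverse strand of chr1:251532149-252231316, against 22059 bases for Gtpbp4 and 31834 for Ccdc77. RefSeq GRCr8 promoter windows, each with 250 bases before and 50 after an annotated start, are shown for the 3 genes and for Kdm5a because the 3 genes differ in them and Kdm5a shares its start region with Ccdc77. They lie at chr17:65999133-65999432 (Gtpbp4), chr4:155228895-155229194 (Ccdc77), chr4:155237874-155238173 (Kdm5a) and chr1:252195164-252195463 (Hpse2), each printed 5′ to 3′ on the strand of its gene. Capitals mark CGGAAG, the core bound by ETS factors, and GGGCGG, the GC box, on either strand, where CTTCCG and CCGCCC are the reverse complements.
Gtpbp4: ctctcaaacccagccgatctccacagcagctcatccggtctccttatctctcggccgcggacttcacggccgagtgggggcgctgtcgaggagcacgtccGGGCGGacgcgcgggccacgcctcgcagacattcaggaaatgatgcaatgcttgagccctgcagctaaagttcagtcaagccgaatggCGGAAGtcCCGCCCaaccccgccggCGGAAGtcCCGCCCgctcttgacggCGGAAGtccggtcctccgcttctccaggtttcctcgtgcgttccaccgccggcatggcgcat
Ccdc77: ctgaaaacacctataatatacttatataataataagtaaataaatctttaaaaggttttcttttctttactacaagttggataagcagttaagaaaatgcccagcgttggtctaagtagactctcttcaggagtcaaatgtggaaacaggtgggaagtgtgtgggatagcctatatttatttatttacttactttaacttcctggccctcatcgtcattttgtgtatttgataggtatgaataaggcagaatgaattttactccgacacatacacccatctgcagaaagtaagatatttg
Kdm5a: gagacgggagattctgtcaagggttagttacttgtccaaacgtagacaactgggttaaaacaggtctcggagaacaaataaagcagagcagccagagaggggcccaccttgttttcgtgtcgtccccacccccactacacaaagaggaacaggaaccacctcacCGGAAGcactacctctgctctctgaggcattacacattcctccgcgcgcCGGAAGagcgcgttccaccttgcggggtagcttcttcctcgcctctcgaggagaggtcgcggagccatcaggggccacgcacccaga
Hpse2: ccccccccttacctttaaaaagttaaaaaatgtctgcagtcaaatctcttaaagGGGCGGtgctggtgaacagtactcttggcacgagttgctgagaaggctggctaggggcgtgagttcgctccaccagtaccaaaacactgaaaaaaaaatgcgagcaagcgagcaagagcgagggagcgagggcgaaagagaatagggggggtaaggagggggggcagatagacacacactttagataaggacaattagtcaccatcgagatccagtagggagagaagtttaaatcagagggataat

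The Gtpbp4 window held 34 CpG dinucleotides, a number that 6.82% of the 33469 windows reach, with 3 copies of CGGAAG and 3 of GGGCGG. No match of one motif overlapped a match of another in these windows. Each CGGAAG copy sits inside the 11-letter string GGCGGAAGTCC, the longest string found 3 times in the window. It was searched after it was seen there: 0.0568% of all windows hold it on either strand and 1 window holds 3 copies. The Ccdc77 window held neither motif and 3 CpG dinucleotides, the Kdm5a window held 2 copies of CGGAAG and 18 CpG, and the Hpse2 window held 1 GGGCGG and 10 CpG. TATAAA, the TATA box, was in none of the 4 windows and in 14.2% of all windows, CGGAAG in 16.6% and GGGCGG in 33.1%. The Kdm5a window was anchored at the start site of the deposited table. The window's start lay 1911 bases downstream of it for Gtpbp4, 9291 bases for Ccdc77 and 36103 bases for Hpse2, so for these genes the window is that of another annotated start.

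Gtpbp4 was at its lower level in 69.3% of libraries and at its upper level in 30.7%. Lower-level libraries ranged from 2.97 through a median of 3.30 to 3.62 (mean 3.30 ± 0.13, SD), and upper-level libraries from 4.02 through 4.42 to 5.10 (mean 4.47 ± 0.21, SD). Mean CPM was 8.87 ± 0.87 at the lower and 21.3 ± 3.70 at the upper level (SD), a 2.41-fold difference. The values just inside the cut were 3.62 below and 4.02 above, with 0.41 of empty scale between them. In a bulk hemisphere, fewer cells making a transcript and less of it per cell cannot be told apart.

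Ccdc77 was lower in 58.8% of libraries and upper in 41.2%, the most even split of the 3 genes. The lower level ran from 1.33 through a median of 1.82 to 2.49 and the upper from 3.004 through 3.36 to 4.38. Mean CPM was 2.56 ± 0.45 against 9.70 ± 2.05 (SD), 3.79-fold. The nearest libraries to the cut stood at 2.49 and 3.004.

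Hpse2 was lower in 76.02% of libraries and upper in 23.98%. Its lower level ran from 0.33 through a median of 0.90 to 1.53 and its upper level from 2.04 through 2.35 to 3.22, so the groups were again 0.51 apart at their closest. Mean CPM was 0.86 ± 0.25 against 4.42 ± 1.12 (SD), 5.14-fold. The lower level of Hpse2 rested on 3.04 to 39 estimated counts per library (median 17.9), the thinnest of the 3 genes.

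**Figure D1:**
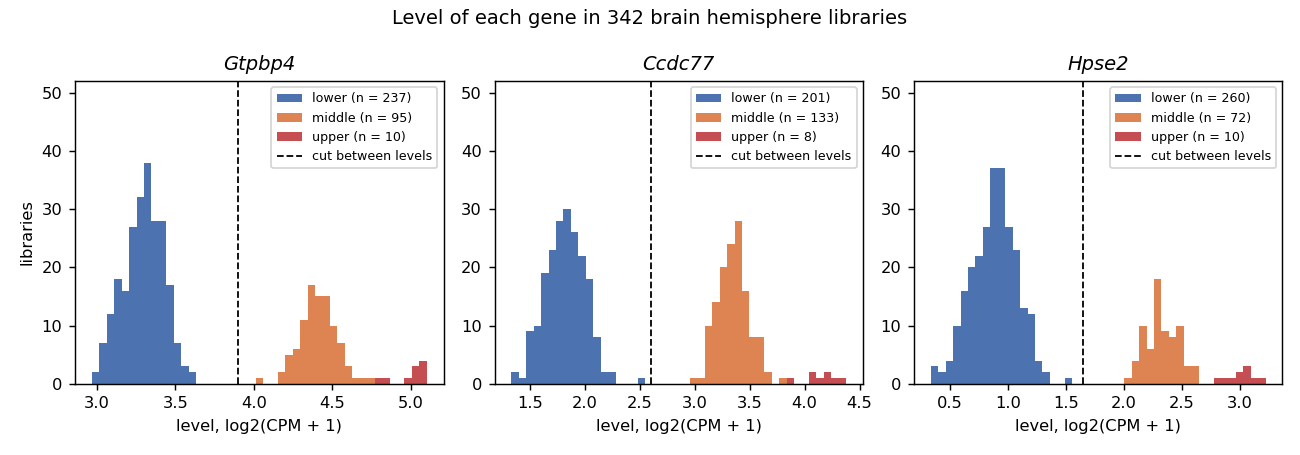
Histograms of the level, log2(CPM + 1), of Gtpbp4, Ccdc77 and Hpse2 in all libraries, with bars coloured by cluster and stacked, and a dashed line at the cut between levels. In each panel the line falls in an empty stretch, and a small upper cluster of 10, 8 and 10 libraries lies at the right.

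Each upper level can be described as 2 clusters. As a description of the values that chose the genes, and not a test, Gaussian mixtures with a common SD were fitted with 1 to 4 components. From 2 to 3 components the Bayesian information criterion dropped by 88.9 for Gtpbp4, 69.01 for Ccdc77 and 32.97 for Hpse2, and going from 3 to 4 gave no further drop. With 3 components the lower cluster was the lower level, and the upper level divided into a middle cluster and a small upper cluster. The gap between these 2 was narrow: 4.74 to 4.78 for Gtpbp4, 3.78 to 3.89 for Ccdc77 and 2.65 to 2.79 for Hpse2.

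On the CPM scale the clusters were nearly evenly spaced. Gtpbp4 had a mean of 8.87 CPM in the lower cluster, 20.3 in the middle (95 libraries) and 31.3 in the upper (10 libraries), steps of 11.4 (SE 0.19) and 10.95 (SE 0.79). Ccdc77 had 2.56, 9.27 and 16.8 CPM, the last in 8 libraries, steps of 6.71 (SE 0.094) and 7.54 (SE 0.63). Hpse2 had 0.86, 4.05 and 7.09 CPM, the last 2 in 72 and 10 libraries, steps of 3.19 (SE 0.059) and 3.04 (SE 0.22). The second step was 0.96, 1.12 and 0.96 times the first, in that order of genes. The clusters were drawn on these same values, so the SEs are a description and leave out the uncertainty of the clustering. From the lower to the upper cluster the mean rose 3.53-fold for Gtpbp4, 6.56-fold for Ccdc77 and 8.24-fold for Hpse2, values that the clustering chose.

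The spread between libraries of 1 cluster was set beside the spread that Poisson counting alone would give. The SD of the level in the lower cluster was 0.13 for Gtpbp4, 0.18 for Ccdc77 and 0.20 for Hpse2, where Poisson counting alone would give 0.095, 0.14 and 0.16. In the middle cluster the SDs were 0.12, 0.14 and 0.14 against counting values of 0.069, 0.094 and 0.12, and in the upper cluster 0.11, 0.14 and 0.12 against 0.062, 0.079 and 0.096. Estimated counts are not independent molecules, so these counting values are lower limits, and an excess over the true counting noise is not shown. The rest of the spread is not divided here between counting, rats and preparation.

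**Figure D2:**
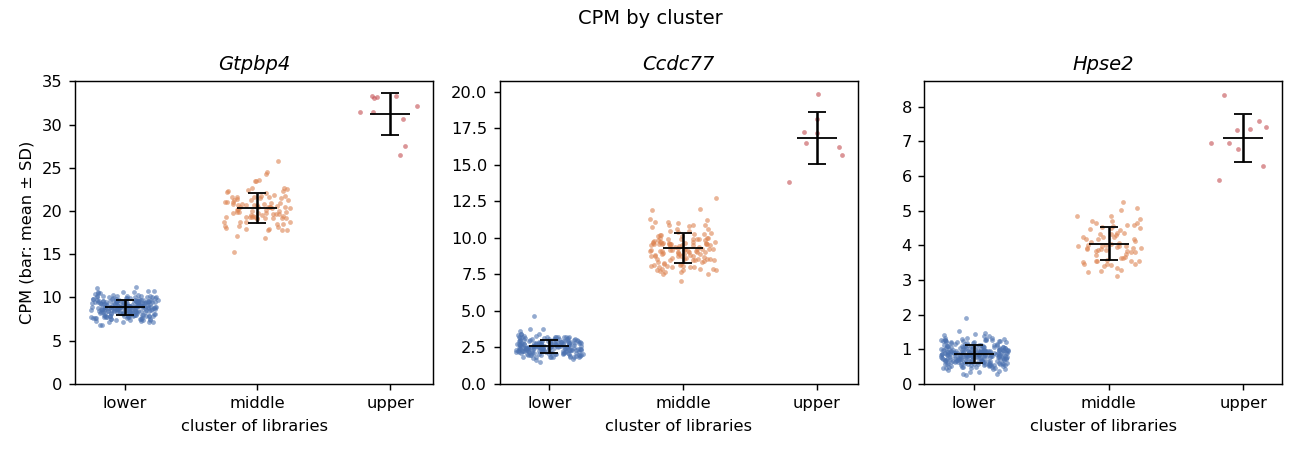
CPM of each gene in every library by cluster, with the mean and SD in black and the axis starting at 0. The cluster means rise by similar amounts: 8.87, 20.3 and 31.3 for Gtpbp4, 2.56, 9.27 and 16.8 for Ccdc77, and 0.86, 4.05 and 7.09 for Hpse2.

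The levels of the 3 genes were set against each other, since the rule used each gene alone. Gtpbp4 was upper in 29.1% of libraries where Ccdc77 was upper and in 31.8% where it was lower (odds ratio 0.88, two-sided Fisher's exact test, p = 0.635, Benjamini-Hochberg adjusted over the 3 pairs 0.952). Gtpbp4 and Hpse2 gave 30.5% and 30.8% (odds ratio 0.99, p = 1, adjusted p = 1). Without block D they gave 23.3% and 33.1% (odds ratio 0.61, Fisher's exact test, adjusted p = 0.432; 0.432 to 1 over 3 alternatives). Ccdc77 was upper in 46.3% of libraries with upper Hpse2 and in 39.6% with lower Hpse2 (odds ratio 1.32, p = 0.305, adjusted p = 0.914). In all, 71 libraries were upper for 2 of the genes and 11 for all 3. The 28 libraries of the upper clusters were 28 different libraries. These clusters held only 2.92%, 2.34% and 2.92% of libraries, so little overlap would be found for unrelated genes too. Neither the joint counts nor this overlap was tested.

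The only sign of a batch in the labels is the library identifier. Libraries whose identifiers share their first 6 characters form 7 blocks of at least 8 libraries, with 97.95% of libraries in all, and the largest, block D, holds 42.4%. The share at the upper level ran from 26.8% to 50% over the blocks for Gtpbp4, from 15.4% to 44.8% for Ccdc77 and from 12.1% to 27.8% for Hpse2. Blocks did not differ past the threshold for any of the 3 (permutation test of the chi-square statistic, 100000 permutations, adjusted p = 0.889 for each, unadjusted 0.889, 0.457 and 0.742). Both levels were present in every block, and the distance between their means lay between 1.03 and 1.25 for Gtpbp4, 1.48 and 1.90 for Ccdc77, and 1.42 and 1.96 for Hpse2.

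**Figure D3:**
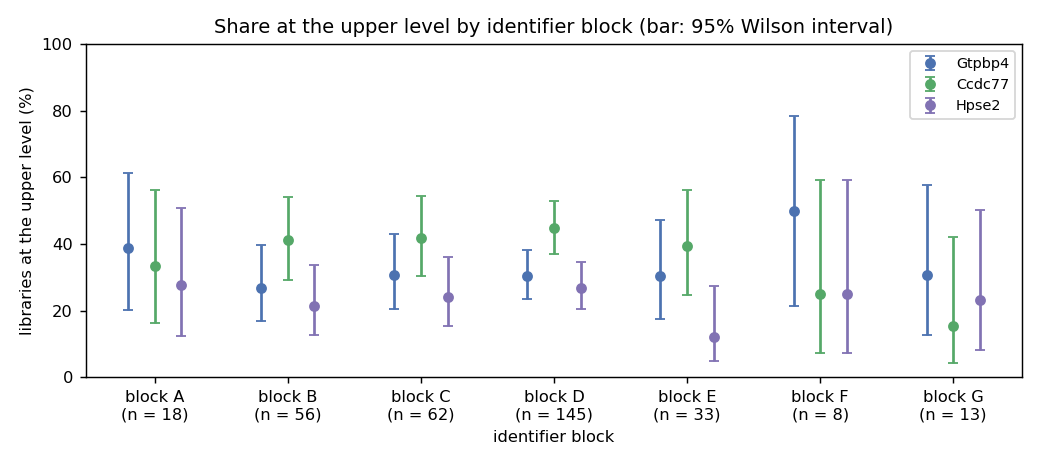
Percent of libraries at the upper level of Gtpbp4, Ccdc77 and Hpse2 in each of 7 identifier blocks, with 95% Wilson intervals. The intervals overlap between blocks for each gene, and in block D the shares were 30.3%, 44.8% and 26.9%.

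Depth moved with the level of Hpse2. Libraries at its upper level had a median total of 22904691 against 21570557 at the lower level, a mean difference of 0.15 in log2 total (two-sided permutation test, adjusted over 6 comparisons p = 0.00489) and higher in 7 of 7 blocks (0.074 to 0.40). They also had 264.5 more genes above 0 on average (permutation test, adjusted p = 0.00489), higher in 6 of 7 blocks. The medians lay closer together, at 26422.5 genes against 26351 at the lower level. The part of depth in the Hpse2 levels was not tested. Neither total nor genes above 0 passed for Gtpbp4 (permutation test, adjusted p = 0.227 and 0.0701) or Ccdc77 (0.776 and 0.954).

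Which other genes differed between the levels was tested with limma over all genes whose mean level reached 1, upper against lower, with Benjamini-Hochberg adjusted p under 0.05 as the call. Of 16682 genes tested in each comparison, 3 were called for Gtpbp4 (0.018%; 0.00599% higher and 0.012% lower), 6 for Ccdc77 (0.036%) and 10 for Hpse2 (0.0599%). In that fit 18 of the 19 calls were on the chromosome of the gene that set the levels, and no gene was called for 2 of the 3. On other chromosomes the calls were 1 of 16211 genes for Gtpbp4, 0 of 15737 for Ccdc77 and 0 of 14577 for Hpse2. This split moved with the covariates for Gtpbp4: with 10 principal components 8 of its 11 calls were on other chromosomes, with identifier block 4 of 7, and over the 13 alternatives 0 to 8 were. Over the same alternatives 0 to 1 call was on another chromosome for Ccdc77 and 0 to 2 for Hpse2. On other chromosomes limma-voom called 3, 0 and 0 genes, and 824, 850 and 474 had an unadjusted limma p under 0.05, which is 5.08%, 5.40% and 3.25% of them.

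Around Gtpbp4, 7 of the 31 neighbours within 1 Mb had a mean level of at least 1 and 2 of them were called, 1 in each direction. LOC103690178, a transcript annotated only as a miscellaneous RNA at chr17:66271518-66290034, starts 274.05 kb away. At the lower Gtpbp4 level it ran from 2.40 through a median of 2.95 to 3.26, and at the upper level from 0.51 through 2.17 to 2.64. The groups overlapped only between 2.40 and 2.64. Its level fell by 0.88 (SE 0.032, limma adjusted p = 3.28e-86), lower in 7 of 7 blocks, and 69.3% of its variance lay between the 2 levels. It was called in all 12 alternatives that tested it. Its sequence was not compared here with other transcripts, so how far its estimated count depends on reads shared with them is not known.

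LOC103690178 followed the 3 clusters in the reverse order of Gtpbp4. It stood at 6.75 ± 0.91 CPM in the lower, 3.57 ± 0.66 in the middle and 1.03 ± 0.55 in the upper Gtpbp4 cluster (SD, with 95 and 10 libraries in the last 2). On the log scale the second step, from the middle to the upper cluster, was a fall of 1.20 (SE 0.11, permutation test, p = 1e-05, the smallest that 100000 permutations can give, adjusted over 38 steps 3.17e-05). Of the 10 upper-cluster libraries, the highest reached 1.79 and the lowest 0.51, against 1.59 to 2.64 in the middle cluster.

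Within the lower and middle clusters the correlation of the pair was positive. In the lower cluster Pearson's r between Gtpbp4 and LOC103690178 was 0.20 (permutation p = 0.00224, adjusted over 36 values 0.0410) and Spearman's rho 0.17 (p = 0.00965, adjusted 0.0579). Without the 2 libraries farthest from the Gtpbp4 median r was 0.19, and within 6 blocks it ran from -0.19 to 0.40. In the middle cluster r was 0.27 (n = 95, permutation p = 0.00925, adjusted 0.0579) and rho 0.18 (adjusted 0.248), with r at 0.20 without 2 libraries. In the upper cluster, with 10 libraries, r was -0.51 and rho -0.067 (permutation test, adjusted p = 0.397 and 1), and r was 0.0092 without 2 libraries. The shared library total enters both values of such a pair.

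Wdr37, which encodes a WD repeat protein, was called in the other direction. It ran from 6.17 through 6.37 to 6.60 at the lower and from 6.25 through 6.41 to 6.57 at the upper Gtpbp4 level, so the groups overlapped almost wholly. The rise of 0.038 (SE 0.0078, limma adjusted p = 0.00666) had a 95% interval of 0.023 to 0.054 and was seen in 6 of 7 blocks. Idi1, an isomerase of the cholesterol pathway whose start site is at nearly the same distance, differed by -0.0024 (interval -0.042 to 0.037, adjusted p = 0.995). The call on Wdr37 was lost without the upper cluster (adjusted p = 0.0629; 0.000288 to 0.0629 over 13 alternatives).

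Other tested neighbours did not pass. Larp4b, an RNA-binding regulator of translation 88.6 kb away, differed by 0.0021 (interval -0.011 to 0.015), Dip2c by -0.019 and Zmynd11, a reader of methylated histones, by -0.0035. LOC134482729, 106.16 kb away, differed by -0.087 (adjusted p = 0.0563) and passed in 4 of 12 alternatives. The remaining 24 neighbours were under the level minimum. With that minimum lowered to a value above 0 in 20% of libraries, 3 more were called: Idi2, the relative of Idi1 28.9 kb away (1.38-fold in CPM, adjusted p = 0.00807), LOC120097764 (0.42-fold, 0.00192) and LOC102551575 (3.26-fold, 1.85e-07), each at a mean level near 0.30 or below. The 1 call outside chromosome 17 was LOC134480688, a long noncoding RNA on chromosome 10 that fell by 0.12 (adjusted p = 0.00844), lower in 5 of 7 blocks and not called without block D (adjusted p = 0.256; 0.00522 to 0.256 over 12 alternatives). Nor was it called with library total and genes above 0 as covariates (limma adjusted p = 0.0543).

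**Figure D4:**
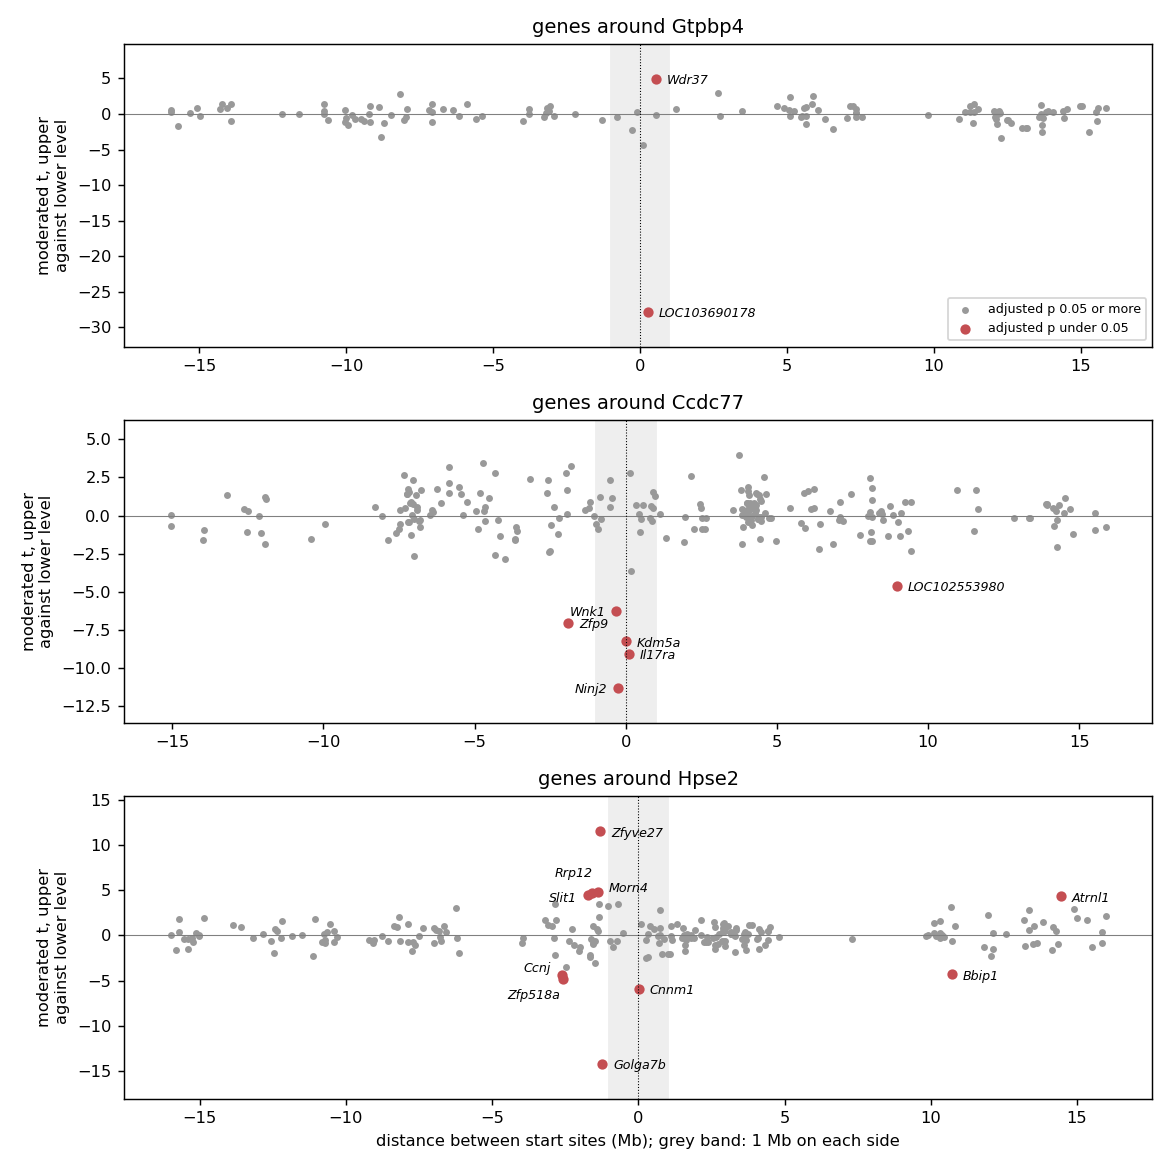
Moderated t of limma, upper against lower level, for every gene tested within 16 Mb of Gtpbp4, Ccdc77 and Hpse2, against the distance between start sites in Mb, with called genes in red. The called genes lie within 0.55 Mb of Gtpbp4 and mostly within 3 Mb of the other 2 genes, LOC103690178 has the most extreme t (-27.8), and the vertical scales differ between panels.

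Around Ccdc77, 24 of the 35 neighbours were tested, 4 were called, and all 4 were lower at the upper Ccdc77 level. They were Ninj2, Il17ra, Kdm5a and Wnk1. Zfp9, 1.91 Mb away, and LOC102553980, 8.96 Mb away on the same chromosome, were also lower, so all 6 calls had 1 direction (0.036% of genes tested were called lower and 0 higher). Each of the first 5 was called in 13 of 13 alternatives.

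Ninj2, an adhesion protein induced in glia after nerve injury, starts 260 kb away. It ran from 2.603 through 3.57 to 4.02 at the lower and from 2.70 through 3.31 to 3.74 at the upper Ccdc77 level. The groups overlapped over most of that range, and the mean fell by 0.25 (SE 0.022, limma adjusted p = 1.82e-21), in 7 of 7 blocks. By cluster it stood at 10.8 ± 1.62, 9.06 ± 1.29 and 7.36 ± 0.83 CPM (SD). The second step was a fall of 0.26 (SE 0.053, permutation test, adjusted p = 0.000345).

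Il17ra, a subunit of the interleukin 17 receptor 101.5 kb away, ran from 4.11 through 4.60 to 4.89 at the lower and from 4.07 through 4.46 to 4.74 at the upper level. It fell by 0.14 (SE 0.016, limma adjusted p = 5.13e-14), in 7 of 7 blocks. Its cluster means were 23.04, 20.97 and 17.9 CPM, and the 8 libraries of the upper Ccdc77 cluster, from 4.16 to 4.33, all lay below the middle cluster's mean of 4.45. The second step was a fall of 0.21 (SE 0.028, permutation test, adjusted p = 8.14e-05).

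Kdm5a, a histone H3 lysine demethylase and the head-to-head partner of Ccdc77, ran from 5.69 through 6.03 to 6.32 at the lower and from 5.74 through 5.96 to 6.11 at the upper level. It fell by 0.076 (SE 0.0092, limma adjusted p = 1.57e-11), in 6 of 7 blocks. Cluster means were 64.3, 61.1 and 58.5 CPM, and the second step, a fall of 0.062, had an adjusted permutation p of 0.0456. The 5′ ends of this pair overlap and no source says whether counting used the strand, so reads from the overlap cannot be told apart. Within the middle cluster Kdm5a and Ccdc77 rose and fell together (r = 0.26, permutation p = 0.00228, adjusted 0.0410; rho = 0.25, adjusted 0.0484; r = 0.23 without 2 libraries and 0.078 to 0.55 within 4 blocks). In the lower cluster r was 0.046 (adjusted permutation p = 0.921). For Ninj2 and Il17ra with Ccdc77, r ran from -0.033 to 0.071 in the lower and middle clusters. None of their values passed in any cluster (lowest adjusted permutation p = 0.534). Wdr37 with Gtpbp4 and Cnnm1 with Hpse2 had none past the threshold either (lowest adjusted permutation p = 0.0579 and 0.191).

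Wnk1, a kinase that controls chloride cotransporters, fell by 0.060 (SE 0.0097, limma adjusted p = 3.24e-06), in 7 of 7 blocks, from a median of 7.38 to 7.32. Zfp9, a zinc finger protein, fell by 0.16 (SE 0.023, adjusted p = 3.89e-08), from a median of 3.98 to 3.83, in 6 of 7 blocks. LOC102553980 fell by 0.29 (SE 0.063, adjusted p = 0.0136), but its range of 0.68 to 3.37 at the lower level enclosed the 0.55 to 2.82 of the upper level except at the bottom. Its call was lost in 3 of 12 alternatives, among them without block D (adjusted p = 0.486; 0.00482 to 0.486 over the alternatives).

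Other neighbours of Ccdc77 did not pass. Hdhd5, 187.26 kb away, differed by -0.055 (interval -0.084 to -0.025, adjusted p = 0.326) and passed in 3 of 13 alternatives. Tmem121b, between Il17ra and Hdhd5, differed by 0.036 (adjusted p = 0.729), Erc1, a scaffold of the synaptic active zone, by 0.023 (0.869), and Rad52, a DNA repair protein, by 0.028 (0.947). With the lowered level minimum LOC134486836, a long noncoding RNA 2.79 Mb away, was called higher (1.41-fold in CPM, adjusted p = 0.000259, in 7 of 7 blocks). Of the 24 neighbours tested, the median absolute difference was 0.018, against 0.010 for genes on other chromosomes.

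Hpse2 had 20 of its 35 neighbours tested and 1 called, Cnnm1, but 7 more calls lay 1 to 3 Mb away and 2 beyond 10 Mb. Of the 10 calls, 5 were higher and 5 lower at the upper level (0.03% of genes tested in each direction). Because depth also differed between the Hpse2 levels, the fit was repeated with log2 total and genes above 0 as covariates, an alternative chosen after seeing the data, and 8 of the 10 were still called. Without block D, which leaves 43 libraries at the upper level, only Golga7b and Zfyve27 were called, and without the upper cluster 5 of the 10 were.

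Golga7b, a partner of the enzymes that attach palmitate to proteins, starts 1.23 Mb from Hpse2. It ran from 6.58 through 6.84 to 7.00 at the lower and from 6.46 through 6.71 to 6.86 at the upper Hpse2 level, with wide overlap. It fell by 0.14 (SE 0.010, limma adjusted p = 1.52e-32), in 7 of 7 blocks, and 37.3% of its variance lay between the levels. Its cluster means were 113.7 ± 6.20, 103.6 ± 5.003 and 96.7 ± 8.96 CPM (SD). The second step was a fall of 0.10 (SE 0.042, permutation test, adjusted p = 0.000713).

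Zfyve27, the gene of protrudin, which shapes the endoplasmic reticulum and promotes neurite growth, starts 1.30 Mb away and moved the other way. It ran from 6.11 through 6.52 to 6.83 at the lower and from 6.51 through 6.66 to 6.86 at the upper level, and rose by 0.13 (SE 0.012, limma adjusted p = 1.33e-22), in 7 of 7 blocks. Cluster means were 91.5, 99.5 and 106.7 CPM, and the second step of 0.10 (SE 0.020) had an adjusted permutation p of 0.00014.

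Cnnm1, a member of a family linked to magnesium transport, is the nearest gene to the Hpse2 start, 14.1 kb away and head to head with it. It fell by 0.041 (SE 0.0069, limma adjusted p = 3.66e-05), from a range of 7.57 to 7.83 to one of 7.41 to 7.79. Its middle and upper clusters had equal means to the second decimal (7.66 each, difference 0.0032, SE 0.025). The call was lost without block D (adjusted p = 0.0558; 3.77e-12 to 0.0558 over 13 alternatives).

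**Figure D5:**
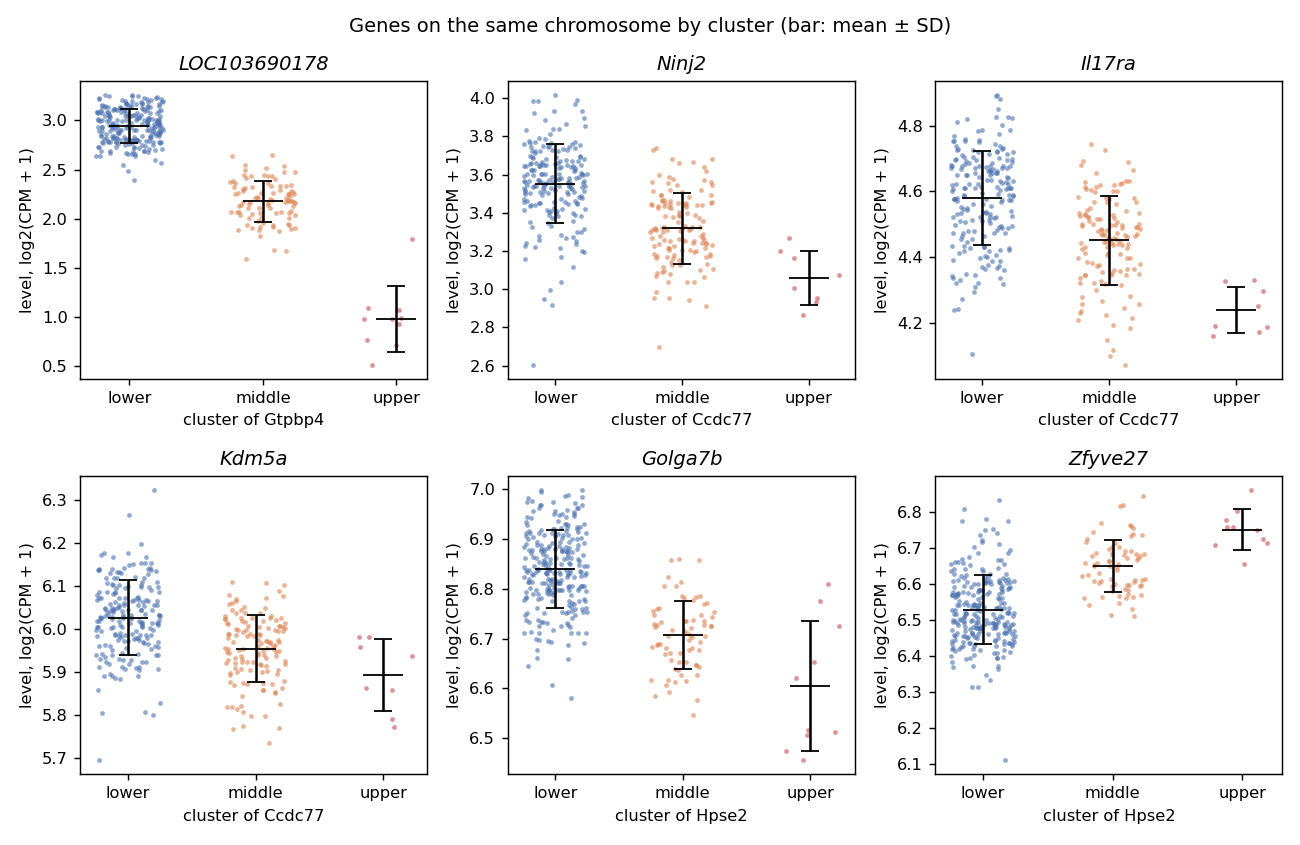
Level, log2(CPM + 1), of 6 called genes in every library, by the cluster of the gene that set the levels, with mean and SD in black. LOC103690178, Ninj2, Il17ra, Kdm5a and Golga7b step down from the lower to the upper cluster and Zfyve27 steps up, and the clusters overlap in every panel except for the lower and upper clusters of LOC103690178.

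The 7 other genes called for Hpse2 differed by less than 0.1. Morn4 (0.050, limma adjusted p = 0.00746), Rrp12, a ribosome assembly factor (0.058, 0.00910), Slit1, an axon guidance ligand (0.066, 0.0192), and Atrnl1, an attractin-like receptor (0.057, 0.0344), were higher. Zfp518a, a zinc finger protein (-0.090, 0.00746), Ccnj, a cyclin (-0.066, 0.0264), and Bbip1, a subunit of the ciliary BBSome (-0.093, 0.0363), were lower. Atrnl1, 14.4 Mb away, was called in 8 of 13 alternatives and Bbip1, 10.7 Mb away, in 4 of 12. The second step went the same way as the overall difference for 7 of the 10 genes called for Hpse2, against 3 of 3 for Gtpbp4 and 6 of 6 for Ccdc77, and passed for 3, 1 and 4 of them. The calls also used the upper-cluster libraries, so such agreement is partly built in, and it was not counted among uncalled genes.

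Among genes nearer to Hpse2, Got1, the cytosolic aspartate aminotransferase 106.31 kb away, differed by 0.010 (interval -0.0052 to 0.026). Hps1, a subunit of a complex for lysosome-related organelles, differed by 0.086 (interval 0.038 to 0.13, limma adjusted p = 0.547) and passed in 1 of 13 alternatives. LOC134485239, a long noncoding RNA 130 kb away at chr1:252360833-252364840, was under the level minimum. With the minimum lowered it was higher at the upper Hpse2 level by 0.18 on the log scale, 2.73-fold in CPM (adjusted p = 7.64e-24), in 7 of 7 blocks, at a median of 0.29 against 0.083. LOC134480820, a long noncoding RNA on chromosome 10, was higher by 0.24 in the same fit (adjusted p = 3.66e-15), at 1.69-fold the CPM and in 7 of 7 blocks. Its level was also under the minimum, at a median of 0.66 against 0.41 (mean 0.60 against 0.36 CPM). LOC134480820 was the 1 gene off chromosome 1 called there. LOC134485239 and LOC134480820 were tested in 1 alternative only, so neither call was checked with depth covariates or without block D. Their sequences were not compared here with other transcripts.

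No gene of the pathway lists was called. Of 46 assembly factors of the large ribosomal subunit, 0 were called for Gtpbp4 in either direction, with a median difference of 0.0041 beside -0.0018 over all genes tested. Gnl2 and Gnl3, other nucleolar GTPases on that list, differed by 0.0013 and -0.0066 (limma adjusted p = 0.995 and 0.982). Of 44 proteins of the large subunit, 0 were called (median 0.0063). Over these 90 genes the lowest limma adjusted p was 0.9345, 1 gene had an unadjusted p under 0.05 and limma-voom called 0.

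Of 48 centrosome and centriole genes, 0 were called for Ccdc77, with a median difference of -0.0014 beside 0.00045 over all genes tested and a lowest limma adjusted p of 0.9001. Of the 48, 1 had an unadjusted limma p under 0.05 and limma-voom called 0. For Hpse2, 0 of 25 tested genes of heparan sulfate synthesis, 0 of 13 proteoglycan cores and 0 of 9 breakdown enzymes were called (medians -9.3e-05, -0.00028 and 0.00011, beside -0.00058 over all). Of these 47 genes, 1 had an unadjusted limma p under 0.05 and limma-voom called 0. Heparanase itself, Hpse, differed by -0.014 (SE 0.023, limma adjusted p = 0.9997) between the Hpse2 levels, at a mean level of 2.003 ± 0.18 (SD).

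Cell type markers gave 0 calls of 57 tested genes for each of the 3 genes, with lowest limma adjusted p of 0.9345, 0.8694 and 0.547, the last for Mog, a myelin protein. At an unadjusted limma p under 0.05, 1, 1 and 13 of the 57 passed, which for Hpse2 is 22.8% beside 3.46% of all genes tested, and limma-voom called 0 for each. Several lists leaned 1 way without a call, and not for Hpse2 alone. These signs were not tested, and markers of 1 list need not vary independently. At the upper Gtpbp4 level all 6 microglia markers were higher, by 0.0016 to 0.051. So were all 6 endothelial and pericyte markers, by 0.0011 to 0.031, and all 6 meningeal markers, by 0.033 to 0.072. All 6 cerebellar markers were lower there, by 0.0011 to 0.018. At the upper Ccdc77 level all 6 choroid plexus markers were lower, by 0.011 to 0.051. All 5 tested ependymal markers were also lower there, by 0.016 to 0.065. At the upper Hpse2 level all 6 oligodendrocyte markers were lower, by 0.019 to 0.051. The median over libraries of their summed CPM was 11766 at the lower and 11554 at the upper level. All 6 microglia markers were lower, by 0.011 to 0.11 (168.05 and 164.47 CPM), as were all 6 of the choroid plexus, by 0.0094 to 0.082 (704.83 and 669.1 CPM), and all 5 ependymal markers, by 0.011 to 0.031 (26.9 and 26.2 CPM). All 6 endothelial and pericyte markers were higher, by 0.011 to 0.043 (188.42 and 193.23 CPM). The 4 tested pineal and pituitary markers had the widest range, from -0.28 to 0.51. Over all 7 genes of that list, with those under the level minimum included, the median summed CPM was 11.4 at the lower and 16.2 at the upper level. Neuron, astrocyte, meningeal and cerebellar markers had both signs between the Hpse2 levels, from -0.043 to 0.054. The part of these lists in the Hpse2 calls was not tested.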

How the data were processed

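RNA was taken from frozen whole brain hemispheres, enriched for polyA and made into directional libraries, per the labels' protocols. The authors used kallisto, per the submitters' processing notes, and neither a version nor strand use is stated. The deposited log2 values become estimated counts when log2(x + 1) is undone, with no scaling for depth; 63.2% of those from 0.5 to 5 lie within 0.002 of a whole number. Totals per library, 5418230 to 42980793, set the precision of low genes.

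All 342 libraries (of 352 samples) were scaled to 1000000 (CPM), and the level is log2 after a pseudocount of 1. Lower, middle and upper clusters held 237, 95 and 10 libraries for Gtpbp4, 201, 133 and 8 for Ccdc77, and 260, 72 and 10 for Hpse2, whose cut was 1.65. The members, cuts and gene lists were chosen with earlier results of these data known. Of 38354 genes, 38278 matched RefSeq GRCr8, from which coordinates, gene types and promoter windows come; all 4 windows were matched by symbol. Pairs of libraries correlated at a median of 0.991 (highest 0.995), and in the closest pair chi-square over degrees of freedom was 3.78, so no library counted as a repeat. The labels say that 10 samples were removed and 14 relabelled.

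limma 3.58.1 (R 4.3.3, eBayes with a mean-variance trend) compared the levels over genes of mean level at least 1, leaving out the gene that set them; it was tested on simulated data. Permutation tests used 100000 permutations, and SciPy 1.17.1 gave Fisher's test. The rule for named genes covers the 3 genes, their neighbours within 1 Mb, the 10 called genes of largest absolute t per member, and called list genes, up to 4 a list. Not every neighbour is named; those without a call were picked after their values were seen, as were LOC134486836, LOC134480820, Hpse, Gnl2, Gnl3 and Mog, which lie outside the rule. Correlations planned within the upper level were computed within its 2 clusters, since these are separate, for at most 3 called neighbours a gene. The cluster steps, the fits with 3 clusters, without the upper cluster and with depth covariates were chosen after seeing the data. Other alternatives were a pseudocount of 0.1, median ratio scaling, a level minimum of 3 or a value above 0 in 20% of libraries, identifier block or 10 principal components as covariates, voom weights, and removal of block D, of the 5% of libraries with fewest genes, or of libraries within 0.2 of a cut.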

Additional observations from a re-analysis of the deposited data

How the results depend on the processing

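Direction held in every alternative run for every called gene named in the report: none reversed, and 29 such values lost the call, most often those of Bbip1, Atrnl1 and LOC102553980. LOC103690178, Ninj2, Il17ra, Kdm5a, Zfp9, Wnk1, Golga7b and Zfyve27 kept the call in each alternative that tested them. The count of genes called for Gtpbp4, 3 in the report, was 5 with a pseudocount of 0.1 and 5 with voom weights, 6 with the lowered level minimum and 6 with 3 clusters coded 0, 1 and 2, 7 with block and 11 with 10 principal components as covariates (4 and 8 of them on other chromosomes), and 1 with a level minimum of 3, which leaves out LOC103690178 and LOC134480688. For Hpse2 the count fell from 10 to 2 without block D, which leaves fewer libraries, and to 5 without the upper cluster, and for Ccdc77 it lay between 5 and 9. No pair of the 3 genes passed in any alternative (lowest adjusted p 0.432, Fisher's exact test). No paired analysis was possible because the series holds a single group. Depth limits Hpse2 at its lower level, which rests on few counts, and genes under a level of 1.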
